A study of Mus musculus with 6106 samples.

Results

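The comparison is between the outer bins of Nr4a1 reporter fluorescence among splenic regulatory T cells (Tregs), GFPhigh against GFPlow, across all genes with enough transcripts to measure. The cells were chosen by their column names in the deposited count table and by depth. Of 6106 cells deposited, 3898 cells of the outer bins held at least 500 unique molecular identifiers (UMIs) and were compared, 1775 of GFPhigh and the rest of GFPlow. Of 23725 genes in the table, 7740 had at least 50 UMIs in both bins together. All cells came from spleens of male mice, aged 10 months, of the strain given as B6 Nr4a1-Gfp Foxp3-Ires-Thy1.1. Every bin, GFPlow included, was sorted for Thy1.1 reported from Foxp3, so all groups carry both reporters and none is free of them. GFPlow was the 0 to 20 percent range of GFP fluorescence and GFPhigh the 80 to 100 percent range. A bin of 40 to 60 percent, GFPmed with 1537 cells, is given beside them. The number of mice behind each bin is not given in the sources used here.

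Tregs are CD4 T cells that depend on the transcription factor Foxp3 and hold other immune cells in check. Nr4a1 is an immediate early gene of T cell receptor (TCR) signalling, and its reporter is widely used as a readout of how much TCR signal a T cell has received. Splenic Tregs span resting cells that recirculate through lymphoid organs and activated cells that express receptors for entry into tissues.

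Each bin was 1 droplet (inDrops) library with 0 replicates, so no test between bins was possible and none was made. Levels are UMIs of a gene per 1000000 UMIs of its bin (UPM), and where 3 levels are given together they belong to GFPlow, GFPmed and GFPhigh, in that order. A difference is the log2 ratio of GFPhigh over GFPlow after 0.5 UMI was added to each count, and brackets hold exact conditional binomial 95% intervals, which cover counting error only. The bins compared held 2435870 UMIs in GFPlow and 2270376 in GFPhigh, with medians of 1085 and 1129 UMIs per cell, and cells of GFPmed were deeper. The GFPlow and GFPhigh libraries shared 29 cell barcodes. In sums over a bin, more cells that express a gene and more transcripts per cell cannot be told apart.

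The 5 marker genes of the comparison rose or fell in the order of the bins. They were chosen with earlier results of these data known, so their order is not a check of the sort. Nr4a1 itself stood at 35.7, 92.7 and 340.5 UPM. Tnfrsf9, the gene of the costimulatory receptor 4-1BB, stood at 20.5, 49.8 and 271.3 UPM, and Penk, the gene of proenkephalin, at 6.16, 8.36 and 126.85. In the other direction, the chemokine receptor gene Ccr2 stood at 98.9, 12.7 and 1.32 UPM and the calcium-binding protein gene S100a4 at 274.2, 49.8 and 25.99. All 8 measured markers of T cells and Tregs had UMIs in each bin, and Foxp3 differed little, with a log2 ratio of -0.12 [-0.25, 0.02]. Markers of other cells were found in each bin and were not level. For scale, the T cell and Treg markers summed to 3246, 3055 and 3801 UPM. The summed level of the 5 plasma cell markers was 58.7, 29.5 and 269.999 UPM, of which Jchain gave 31 UMIs in GFPlow and 483 in GFPhigh. The 12 B cell markers summed to 316, 414.8 and 404 UPM, with Pax5 at 0 in both outer bins, and the 7 red cell markers to 1399, 3002 and 1051 UPM. Myeloid markers summed to 80.5, 234.8 and 82.8 UPM with S100a8 and S100a9 at 0 in both outer bins, CD8 T or NK markers to 53.4, 130.6 and 63.4 UPM with Ncr1 and Klre1 at 0 in both, and platelet markers to 0.821, 1.59 and 0.881 UPM. GFPmed thus held the most red cell, myeloid and CD8 T or NK transcripts, and the part of these in its levels was not tested. Cells with 2 or more UMIs of such markers were 5.23%, 9.56% and 8.11% of the bins in order. Without these cells 653 (8.74%) of 7469 measured genes were at least 1.5-fold higher and 422 (5.65%) lower in GFPhigh. With them these were 666 (8.6%) and 446 (5.76%) of 7740 genes.

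Most genes differed little between the bins, and by total UMIs more stood past 1.5-fold upward than downward in GFPhigh. With TMM scaling this excess was smaller, at 7.24% higher against 6.64% lower, and with median-of-ratios size factors at 7.61% against 6.36%. By total UMIs, 666 of 7740 genes (8.6%) were at least 1.5-fold higher in GFPhigh and 446 (5.76%) at least 1.5-fold lower. At least 2-fold, 2.16% were higher and 1.34% lower. The median log2 ratio of all genes was 0.04. Among the genes past 1.5-fold, 557 of those higher and 386 of those lower had an interval that lay apart from 0, whereas all genes past 2-fold had one. Of 73 genes already named for these libraries, 29 were among the higher and 28 among the lower genes, and 637 higher and 418 lower genes were left without them. These still hold genes of the same kinds, interferon-inducible and effector genes included, as single names and not whole programs were set aside.

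The share of genes past 1.5-fold depended on the number of UMIs. Of 1895 genes with 50 to 99 UMIs, 16.0% were higher and 8.81% lower. Of 655 genes with 1000 UMIs or more, 2.90% (19 genes) were higher and 5.04% (33 genes) lower, so the order of the directions was the opposite among well-counted genes. In the class of 500 to 999 UMIs the counts were 34 higher and 37 lower of 806 genes. The median width of the interval went from 1.44 in the lowest class to 0.27 in the highest, in log2 units.

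**Figure D1:**
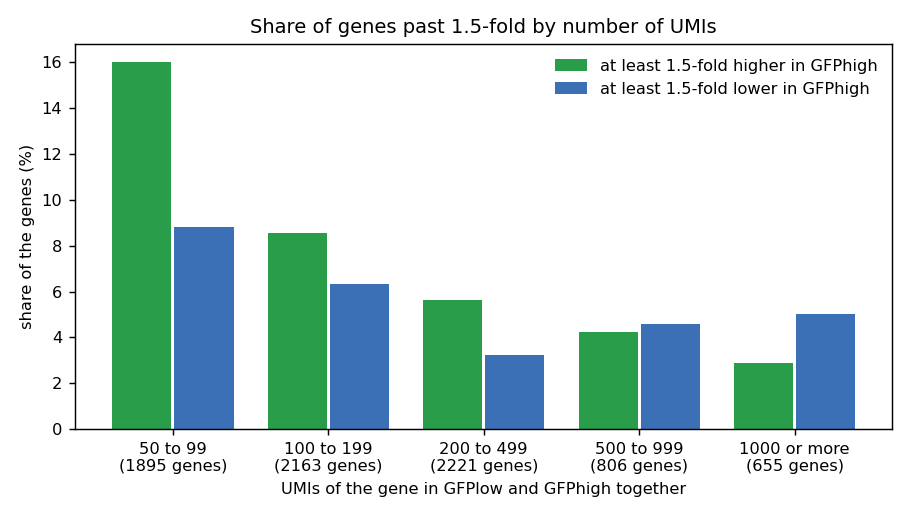
Share of genes at least 1.5-fold higher (green) or lower (blue) in GFPhigh than in GFPlow, in percent, for 5 classes of the number of UMIs in both bins. The higher share is the larger one below 500 UMIs (16.0% against 8.81% at 50 to 99 UMIs) and the smaller one at 1000 UMIs or more (2.90% against 5.04%).

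**Figure D2:**
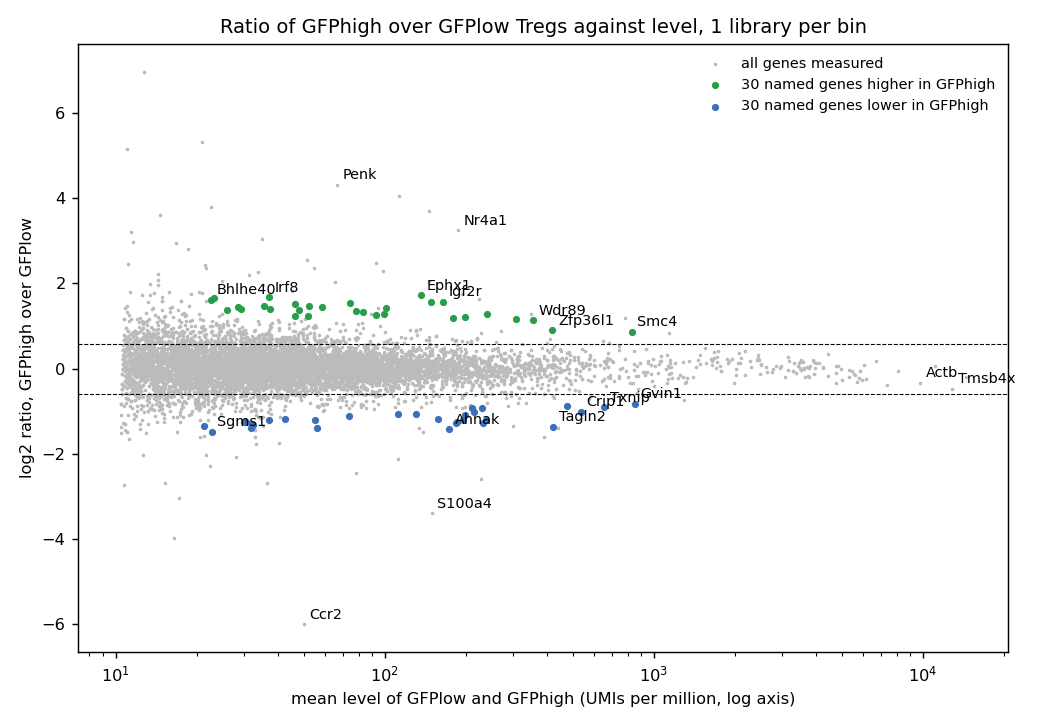
Log2 ratio of GFPhigh over GFPlow against the mean level of both bins in UPM (log axis) for 7740 genes, with the 30 named genes higher in GFPhigh in green and the 30 lower in blue. Dashed lines mark 1.5-fold. Penk (4.32) and Ccr2 (-6.01) lie far out, while the abundant genes Actb (-0.33) and Tmsb4x (-0.47) lie below 0 but within the dashed lines.

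Promoters of the genes past 1.5-fold were compared by short motifs, since Nr4a1 and the EGR factors are themselves products of TCR signalling. For 5959 measured genes, 499 of the higher and 340 of the lower, RefSeq (GRCm38.p6) gives the window from 250 bases before to 50 after the start, and the most upstream window of a gene was read on both strands. The site of NR4A monomers (NBRE, AAAGGTCA) was in 0.601% of the promoters of higher genes, 0.588% of lower genes and 0.806% of all measured genes, and in 1.46% of all 27025 mouse promoters. The EGR site (GCGGGGGCG) was in 7.01%, 6.47% and 5.19% of them. Among genes at least 2-fold higher it was in 9.23% (12 of 130), and among those at least 2-fold lower in 6.17% (5 of 81). It was in 2.90% of all mouse promoters. The CACCC box bound by KLF factors (CCNCACCC) was in 17.8% of higher, 24.7% of lower and 18.98% of measured genes, against 16.4% of all mouse promoters, and the ETS site (ACCGGAAG) in 2.81%, 5.29% and 5.77%, against 2.34%. The remaining motifs follow with their shares of higher, lower, measured and all mouse genes in that order. AP-1 (TGANTCA) was in 5.61%, 6.47%, 4.46% and 7.92%. CRE (TGACGTCA) was in 3.01%, 2.06%, 3.37% and 1.85%. The E-box (CACGTG) was in 10.0%, 10.3%, 10.9% and 7.24%. The TCF site (CTTTGAT) was in 1.80%, 2.94%, 2.52% and 3.76%. The forkhead site (TGTTTAC) was in 2.004%, 3.53%, 2.48% and 3.52%, and the GATA site (AGATAA) in 7.82%, 9.12%, 6.26% and 11.4%. Past 2-fold, the shares of higher and lower genes were 13.1% and 7.41% for the E-box and 10.0% and 12.3% for GATA. They were 20.8% and 24.7% for the CACCC box, 5.38% and 6.17% for AP-1, and 2.31% and 1.23% for CRE. For the forkhead site they were 2.31% and 4.94%, for TCF 1.54% and 2.47%, for ETS 3.08% and 3.70%, and for NBRE 0.769% and 0. The CACCC box and the EGR site can lie in the same GC-rich stretch. Of the promoters printed here, 3 belong to genes higher in GFPhigh that hold the EGR site and 1 to a gene lower in GFPhigh that holds the forkhead site. Each is the 250 bases before the start, on the strand of the gene, with all motif letters in capitals. They are Nr4a1 (chr15:101266596-101266845, plus strand), Baiap2 (chr11:119942842-119943091, plus strand), Igf2r (chr17:12769707-12769956, minus strand) and Txnip (chr3:96557707-96557956, plus strand).
Nr4a1: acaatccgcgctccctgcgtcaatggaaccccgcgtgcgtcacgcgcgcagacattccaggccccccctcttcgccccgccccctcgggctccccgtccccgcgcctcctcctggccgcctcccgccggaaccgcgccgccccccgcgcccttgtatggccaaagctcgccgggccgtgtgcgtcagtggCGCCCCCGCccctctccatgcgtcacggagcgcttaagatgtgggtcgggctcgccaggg
Baiap2: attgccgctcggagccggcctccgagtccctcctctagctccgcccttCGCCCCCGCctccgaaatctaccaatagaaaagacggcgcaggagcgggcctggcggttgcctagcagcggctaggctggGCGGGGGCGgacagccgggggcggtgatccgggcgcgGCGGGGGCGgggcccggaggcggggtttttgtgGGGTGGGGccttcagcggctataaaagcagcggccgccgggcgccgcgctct
Igf2r: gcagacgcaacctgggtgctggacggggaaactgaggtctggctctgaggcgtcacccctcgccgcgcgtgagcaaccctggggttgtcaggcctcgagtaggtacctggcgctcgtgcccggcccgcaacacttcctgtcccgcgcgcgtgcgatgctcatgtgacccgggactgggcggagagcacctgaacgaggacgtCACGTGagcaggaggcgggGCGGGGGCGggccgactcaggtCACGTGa
Txnip: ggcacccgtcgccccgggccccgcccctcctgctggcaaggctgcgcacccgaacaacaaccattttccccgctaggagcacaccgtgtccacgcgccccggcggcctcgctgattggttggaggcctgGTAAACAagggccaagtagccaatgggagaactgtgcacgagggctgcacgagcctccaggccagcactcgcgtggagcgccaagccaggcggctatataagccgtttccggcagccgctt
The capitals mark 1 EGR site in Nr4a1, 60 bases before the start, and in Baiap2 3 EGR sites, the nearest 85 bases before it, and a CACCC box at 52. In Igf2r they mark an EGR site at 29 bases and E-boxes at 48 and 7, and in Txnip a forkhead site. These promoters are examples that hold a motif, not a sample of their sets, and Nr4a1 is the gene of the reporter. In the same stretch the higher genes Irf8, Mxd1 and Tbc1d4 held none of the motifs searched. The lower gene Crip1 held an EGR site 30 bases before its start. A match of letters describes the window and does not show that a factor binds there.

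Among genes not named before, GFPhigh Tregs carried more transcripts of several transcriptional regulators. Irf8, an interferon regulatory factor better known in myeloid and B cells, stood at 17.7, 21.9 and 56.8 UPM, a log2 ratio of 1.68 [1.18, 2.22]. Its promoter window held none of the motifs searched. Bhlhe40, a repressor induced by TCR signalling that also acts in the circadian clock, stood at 11.1, 14.7 and 34.4 UPM (1.61 [0.98, 2.32]). Of the MYC network, Mxd1, an antagonist of MYC, stood at 23.8, 35.03 and 68.7 UPM and Bmyc at 55.01, 56.1 and 146.7, with log2 ratios of 1.52 and 1.41. For Bmyc, GFPmed lay with GFPlow and not between the outer bins in any marked way.

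Of the 5 Ikaros family genes, Ikzf4 and Ikzf2 were at least 1.5-fold higher, beside 8.6% of all genes. Both were chosen for being higher, so this is not a result about the family. Ikzf4, which encodes Eos, a corepressor partner of Foxp3, stood at 30.8, 42.99 and 73.1 UPM (1.24 [0.85, 1.66]). Ikzf2, which encodes Helios, stood at 506, 508 and 789.7 UPM (0.64 [0.54, 0.75]), so that only GFPhigh stood apart. The other members, named after their values were seen, had log2 ratios of 0.16 (Ikzf1), -0.37 (Ikzf3) and 0.04 (Ikzf5). Nfkbid, whose product IkappaBNS is an atypical nuclear inhibitor of NF-kappa-B needed for Treg development, stood at 26.7, 41.8 and 69.2 UPM (1.37). Id3, an inhibitor of E proteins, stood at 190.5, 229.3 and 349.7 UPM (0.88), and the ETS factor gene Elk3 at 51.7, 63.3 and 107.9 UPM (1.06). Dbp, an output gene of the clock, had a log2 ratio of 1.37 [0.80, 1.99] and shares exon sequence with Sphk2 on the opposite strand. As the strand used in counting is not given, reads of such overlapping genes could not be assigned with certainty, and the same holds for Ergic1 with Dusp1 and Ttc3 with Pigp.

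Several of the 30 higher genes encode proteins of membrane traffic or metabolism. Ephx1 (chromosome 1, 180976210 to 181020904, minus strand, mm10), the microsomal epoxide hydrolase, stood at 63.6, 119.8 and 209.7 UPM, a log2 ratio of 1.72 [1.46, 1.99]. Its GFPhigh UMIs lay in 363 cells. Igf2r (chromosome 17, 12682406 to 12769664, minus strand), the mannose 6-phosphate receptor that carries enzymes to lysosomes, stood at 83.3, 134.1 and 247.5 UPM (1.57 [1.34, 1.81]). Tbc1d4 (chromosome 14, 101442360 to 101609191, minus strand), a Rab GTPase-activating protein that controls glucose transporter traffic, stood at 75.1, 84.4 and 222.9 UPM (1.57 [1.32, 1.82]). Its level in GFPmed was close to that of GFPlow, while Ephx1 and Igf2r stood midway. Itm2a, an integral membrane protein gene of activated T cells, had a log2 ratio of 1.53, the monocyte to macrophage differentiation gene Mmd one of 1.46, and Ergic1, of vesicles between endoplasmic reticulum and Golgi, one of 1.24. Sdhaf1, an assembly factor of succinate dehydrogenase, had one of 1.46 and the transporter family gene Slc35g1 one of 1.39.

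Ramp1, Rgs10, Mapkapk2 and Samsn1, single genes of receptor function or signalling, were also among the 30 higher genes. Ramp1, a subunit of the receptor for the neuropeptide CGRP, stood at 31.2, 41.8 and 85.4 UPM (1.45 [1.06, 1.86]). Rgs10, which speeds the shutdown of G protein signals, stood at 189.7, 304.5 and 426 UPM (1.17 [1.01, 1.33]), with GFPmed about midway. Mapkapk2, the kinase downstream of p38, stood at 57.9, 93.5 and 141.8 UPM (1.29), and Samsn1, an adaptor that dampens lymphocyte activation, at 54.6, 55.3 and 131.3 (1.26). Samsn1, like Tbc1d4 and Bmyc, was near level between GFPlow and GFPmed. Baiap2, an organiser of actin at the membrane, had a log2 ratio of 1.65, and Cnn3, an actin-binding calponin, one of 1.45. Ncoa7 (1.33), Ttc3 (1.34) and the secreted protein gene Ecm1 (1.41) also belonged to the 30 higher genes.

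The rest of the 30 higher genes included RNA-binding and chromosome genes. Zfp36l1 (chromosome 12, 80107754 to 80113013, minus strand), whose product marks mRNAs for decay, stood at 292.7, 314.5 and 549 UPM (0.91 [0.77, 1.04]). Its paralog Zfp36l2 stood the other way, at 359, 259.1 and 229.5 UPM (-0.64 [-0.80, -0.49]). Zfp36l2 is named here after its value was seen. Smc4, a condensin subunit, stood at 589, 837 and 1073 UPM (0.86) and its neighbour Ift80, an intraflagellar transport gene that lies next to Smc4 on chromosome 3, at 140.4, 187.5 and 341 (1.28). Ptms, the gene of parathymosin, stood at 110.02, 109.9 and 249.7 UPM (1.18), and Cstf3 (1.22) and Wdr89 (1.14) were the other members. Difference of level was ranked without ribosomal protein, earlier named and other genes that the naming rule left out. Outside that group of 30, Ptma had the most added transcripts in GFPhigh, at 2164, 2026 and 2710.1 UPM. Next came the elongation factor gene Eef1a1, at 10848, 10233 and 11383 UPM. For both, GFPmed was the lowest bin, and their log2 ratios were only 0.32 and 0.07. That of Eef1a1 was 0.02 with TMM scaling and 0.03 with median-of-ratios size factors. The translation factor gene Eif5a (0.60) and the RNA-binding protein gene Ybx1 (0.52) followed a similar direction.

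GFPlow Tregs carried more transcripts of several genes that bind or crosslink actin. Tagln2 (chromosome 1, 172500047 to 172507380, plus strand), the gene of transgelin 2, stood at 610.0, 341 and 236.96 UPM, a log2 ratio of -1.36 [-1.51, -1.22]. Its 1486 GFPlow UMIs lay in 734 cells. Ahnak, a giant scaffold protein of the cell cortex, stood at 253.3, 90.4 and 94.7 UPM (-1.42 [-1.65, -1.19]), so that GFPmed was as low as GFPhigh. The actin crosslinker gene Flna stood at 620.3, 428 and 336 UPM (-0.88), the LIM protein gene Pdlim1 at 176.5, 165.98 and 84.1 (-1.07), and Crip1, a small LIM protein gene, at 716, 566 and 353.7 (-1.02). Fam101b, whose product binds filamins, had a log2 ratio of -1.29. The abundant cytoskeletal genes Tmsb4x and Actb were also lower in GFPhigh, by smaller ratios. Like the genes above, they were chosen for being lower, so the shared direction is not a separate result. Tmsb4x, the gene of the actin monomer-binding thymosin beta 4, stood at 15001, 12084 and 10800.4 UPM (-0.47 [-0.50, -0.45]), and Actb at 10914, 8763 and 8689 UPM (-0.33). Tmsb10, of the same thymosin family, went slightly the other way, at 3412, 3821 and 3794 UPM (0.15 [0.11, 0.20]). The actin genes Baiap2 (1.65) and Cnn3 (1.45) were higher in GFPhigh, and actin genes as a set were not tested.

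Surface receptors and one transcription factor of effector cells were also higher in GFPlow. Ifngr1, the ligand-binding chain of the interferon gamma receptor, stood at 331, 179.9 and 143.6 UPM (-1.20 [-1.40, -1.02]). The partner chain gene Ifngr2 stood the other way, at 33.3, 46.6 and 55.5 UPM (0.74 [0.32, 1.16]). F2r and F2rl1, the genes of the protease-activated receptors 1 and 2, which lie 76576 bases apart on chromosome 13, stood at 45.98, 22.7 and 18.5 UPM (-1.30) and at 42.3, 20.7 and 17.6 UPM (-1.25). Cxcr3, a receptor of type 1 effector cells, stood at 59.1, 30.3 and 25.99 UPM (-1.18), with GFPmed near GFPhigh. Emb, the gene of embigin, a chaperone of monocarboxylate transporters, had a log2 ratio of -1.26 and Ly6c1 one of -1.28. Ly6c1 reads can be shared with close paralogs. Maf, a transcription factor of interleukin 10-producing and effector T cells, stood at 270.1, 107.9 and 127.7 UPM (-1.08 [-1.28, -0.88]).

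Among the lower genes chosen by interval were 6 interferon-inducible GTPase genes not named before. As they were chosen for being lower in GFPhigh, their shared direction is not a separate result. The family as a whole was not tested, so the share of its measured genes that were lower is not given. Iigp1 stood at 219.2, 157.6 and 96.9 UPM (-1.18 [-1.41, -0.95]), and Gbp3 at 101, 57.3 and 46.2 UPM (-1.12). Tgtp1 and Tgtp2, neighbouring copies on chromosome 11 that can share reads, had log2 ratios of -1.02 and -0.91, Irgm2, which overlaps Igtp on the same strand, one of -1.07 and the giant GTPase gene Gvin1, at 1089, 798 and 615 UPM, one of -0.82. All 6 stood between the outer bins in GFPmed.

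The remaining lower genes included enzymes of lipid and amino acid metabolism. Sgms1, sphingomyelin synthase, stood at 33.7, 20.3 and 11.9 UPM (-1.48 [-2.19, -0.86]). Acss2, which makes acetyl-CoA from acetate, stood at 46.4, 36.6 and 17.6 UPM (-1.39), and the acyl-CoA synthetase gene Acsbg1 at 46.4, 23.1 and 18.5 (-1.32). Ass1, argininosuccinate synthase, stood at 302, 235.2 and 159.4 UPM (-0.92). Txnip (chromosome 3, 96557957 to 96561883, plus strand), an inhibitor of glucose uptake and of thioredoxin, stood at 853.5, 556 and 456 UPM (-0.90 [-1.01, -0.80]). Itpr1, the calcium channel of the endoplasmic reticulum, stood at 30.8, 21.5 and 11.9 UPM (-1.36). The calcium-binding protein gene S100a11 (-1.21), the phosphatase gene Cdc25b (-1.21), Plac8 (-1.21, and -4.63 once cells with such marker UMIs of other lineages were left out), Entpd5 (-1.24) and Gramd3 (-1.38) completed the 30 lower genes.

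**Figure D3:**
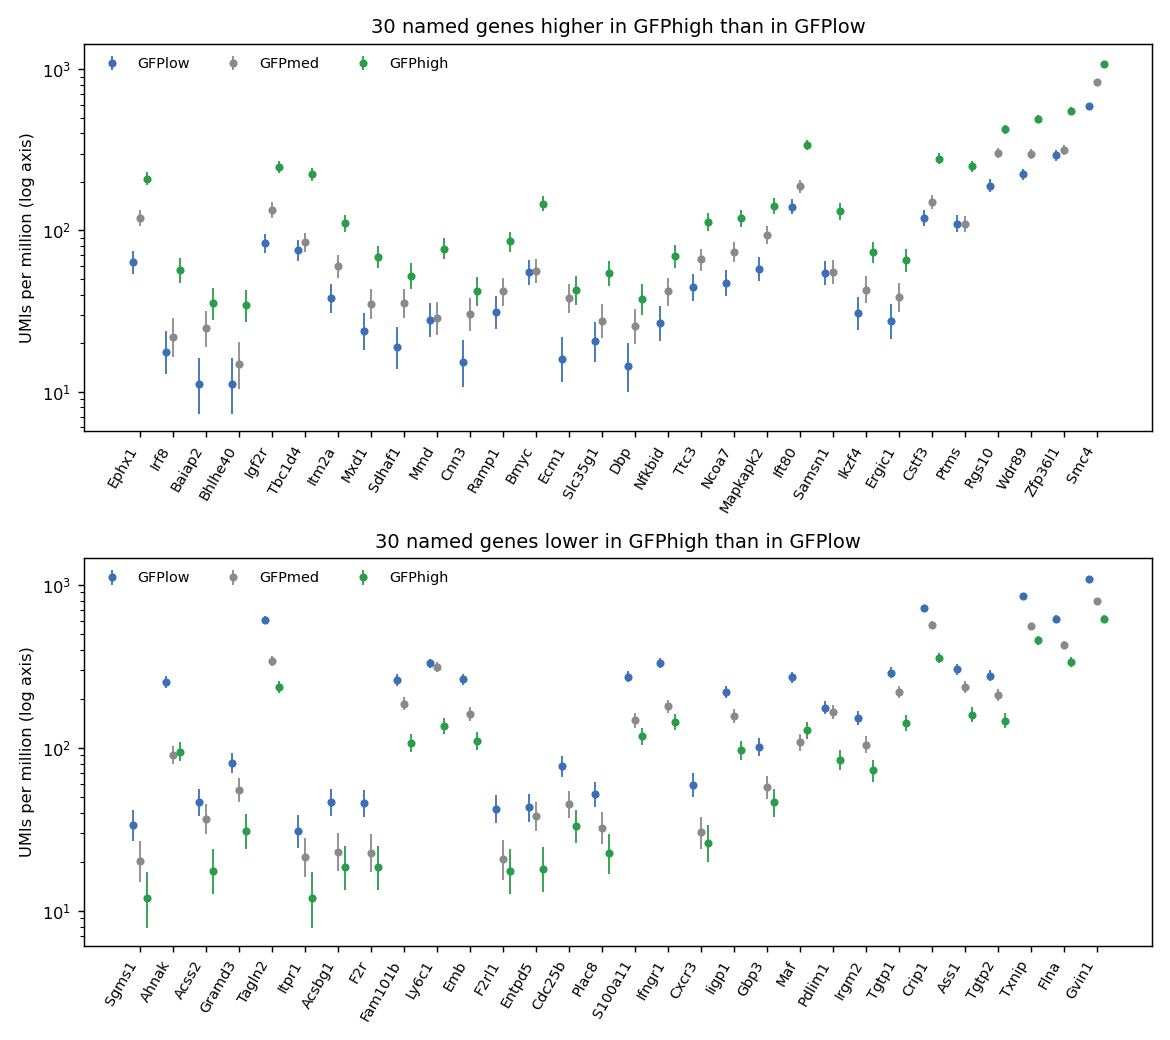
Level in UPM (log axis) of the 30 named genes higher (top) and the 30 lower (bottom) in GFPhigh, in GFPlow (blue), GFPmed (grey) and GFPhigh (green), 1 library each, ordered by log2 ratio, with exact 95% Poisson intervals. Ephx1 stands at 63.6, 119.8 and 209.7 UPM, and Ahnak at 253.3, 90.4 and 94.7.

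The place of GFPmed differed between the directions by median. In GFPmed 29 of the 30 higher and 28 of the 30 lower genes lay between the outer bins, and the exceptions were Ptms, Ahnak and Maf. Along the log2 scale from GFPlow to GFPhigh, GFPmed had covered a median of 38.9% of the way for the 30 higher genes and 54.99% for the 30 lower genes. The middle 50% of genes ran from 25.4% to 53.4% and from 39.2% to 72.9%, so the ranges overlapped. Over all genes past 1.5-fold the medians were 38.2% for 666 higher and 55.7% for 446 lower genes. GFPmed lay between the outer bins for 516 (77.5%) of these higher and 362 (81.2%) of these lower genes. Both shares were smaller than among the 30 named genes of the same direction. As the genes were chosen by the outer bins and each bin is 1 library, these values are a description.

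Gene lists of other processes mostly showed no common shift. Of 53 lists, 51 had a median log2 ratio between -0.2 and 0.2, beside 0.04 for all genes. The list of histone genes had the highest median, 0.56, with 11 of 24 measured members at least 1.5-fold higher and 0 lower, beside 8.6% and 5.76% of all genes. The circadian clock list had the lowest, -0.30, on 7 measured genes, and was mixed. Its members Bhlhe40 and Dbp were higher and Nr1d2 (-0.84), the gene of REV-ERB beta, was lower. Its median was -0.11 without the 2% of cells with the most UMIs, and 0.0275 when every gene with a UMI was counted.

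Among 28 measured G protein-coupled receptors other than chemokine receptors, 2 (7.14%) were at least 1.5-fold higher and 7 (25.0%) lower, beside 8.6% and 5.76% of all genes, with a median of -0.18. The lower members included F2r and F2rl1. The prostaglandin E2 receptor gene Ptger2 stood the other way, at 17.2, 19.9 and 38.3 UPM (1.14). Of 32 genes of calcium entry, calmodulin and calcineurin, 3 (9.38%) were higher, near the 8.6% of all genes, and 6 (18.8%) lower, beside 5.76%, with a median of -0.12. The lower ones took in Itpr1, the plasma membrane calcium pump gene Atp2b1 (267.3, 167.98 and 147.99 UPM, -0.85) and the kinase gene Camk2g (-0.99), and the calcineurin regulator gene Rcan3 was higher (26.7, 34.2 and 47.6 UPM, 0.83).

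Of 15 cytokine receptor genes other than those of interleukin 2 and interleukin 1, 3 (20.0%) were higher and 3 lower, beside 8.6% and 5.76% of all genes. Of 14 JAK and STAT genes, 2 (14.3%) were higher and 0 lower. Stat5a, a transducer of interleukin 2 signals, stood at 34.5, 46.6 and 69.2 UPM (0.9998 [0.61, 1.40]) and Jak3, the kinase of the common gamma chain, at 15.2, 19.9 and 30.4 (0.99 [0.40, 1.62]). Of 98 chromatin genes, 7 (7.14%) were higher and 3 (3.06%) lower, both below the shares of all genes, with the DNA methyltransferase gene Dnmt3a (0.89) and Hdac1 (0.66) among the higher. Of the zinc finger genes of the Zfp series, 16 (11.1%) were higher and 4 (2.78%) lower, and of 42 tubulin, kinesin and dynein genes 5 (11.9%) and 0. Mitochondrial ribosomal protein genes had 54 of 74 members above 0 but only 2 past 1.5-fold, with a median of 0.16. Of 12 nuclear receptor genes outside the NR4A family 0 were higher and 3 (25.0%) lower, and of 18 Notch pathway genes 0 and 3 (16.7%), beside 8.6% and 5.76% of all genes. The lists of V-ATPase subunits (14 genes) and of integrins and their activators (18 genes) had 0 members past 1.5-fold in either direction.

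**Figure D4:**
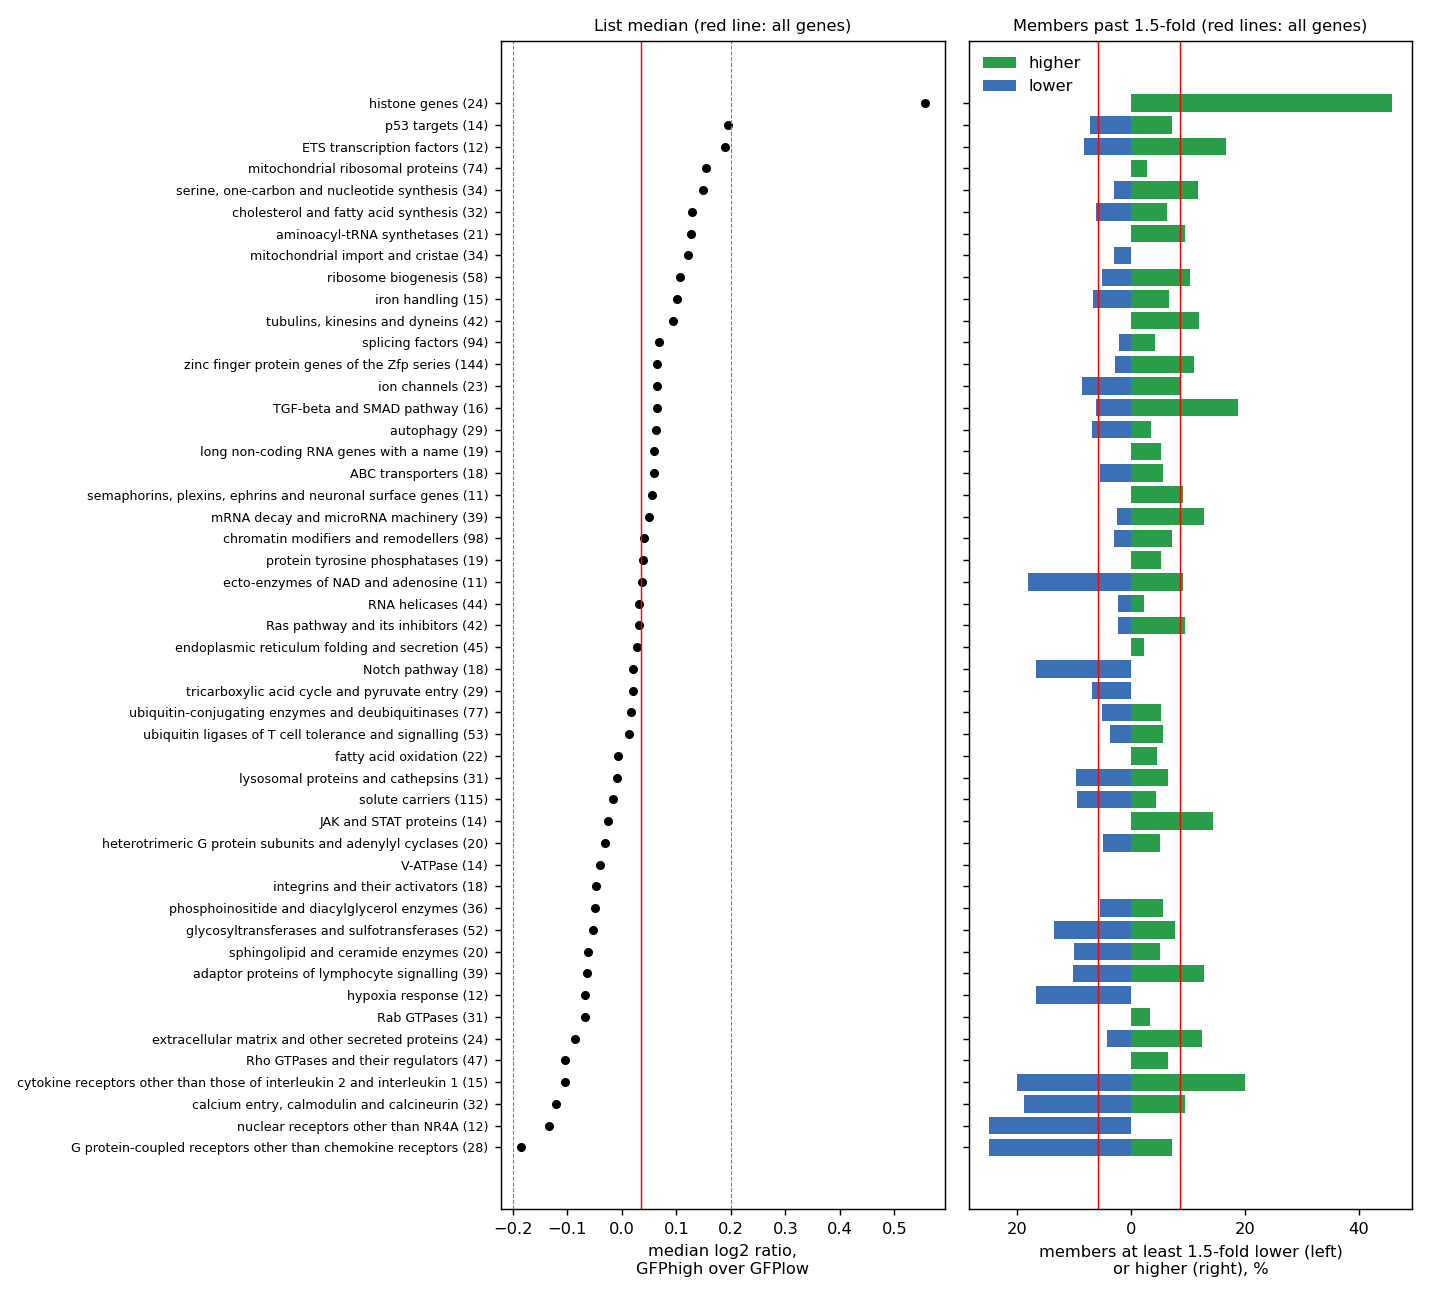
Median log2 ratio of GFPhigh over GFPlow (left) and the percent of members at least 1.5-fold lower or higher (right) for the lists with 10 or more measured genes, with the number measured in parentheses. Red lines give the values of all 7740 genes and dashed lines mark medians of -0.2 and 0.2. The histone list stands apart at 0.56.

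Most UMIs of the cluster histone genes lay in few cells of each bin. Cluster histone genes encode the bulk histones that are made during DNA replication. The 17 measured ones summed to 629, 1240 and 1048 UPM. Cells with 10 or more such UMIs numbered 10, 10 and 16 in GFPlow, GFPmed and GFPhigh, and they held 72.4%, 83.98% and 78.2% of these UMIs. In GFPhigh 1 cell held 742 of 2380. In the other cells the remaining UMIs came to 173.7, 198.6 and 228.6 UPM. Some members had a large share of their UMIs in a single cell. Hist1h2ah had 36.6% of its GFPhigh UMIs in 1 cell, Hist1h2ak 40.9%, Hist1h2ac 35.1% and Hist1h3d 28.8%, and reads of these near-identical copies can be shared. Their log2 ratios were 1.08, 0.90, 0.93 and 0.96. Cells with a UMI of any of 10 proliferation genes such as Mki67 were 6.03% of GFPlow and 5.92% of GFPhigh cells. Without these cells the median of the histone list was 0.17 over 12 measured genes, and the 17 genes stood at 170.4, 210.2 and 240.4 UPM. It was 0.42 over 21 genes when the top cell of each gene was left out, 0.86 over 21 without the 2% of cells with the most UMIs, and 0.85 over 21 once cells with marker UMIs of other lineages were left out. The log2 ratio of Hist1h3d was larger and not smaller in several of these settings, at 1.49 without the cells with proliferation gene UMIs, 1.47 with equal weight per cell, 1.62 without the cells with marker UMIs and 2.16 without the deepest cells. Ube2c, a gene of mitotic exit with 27.5% of its GFPhigh UMIs in 1 cell, went from a log2 ratio of 0.80 to -0.10 without the cells with proliferation gene UMIs.

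**Figure D5:**
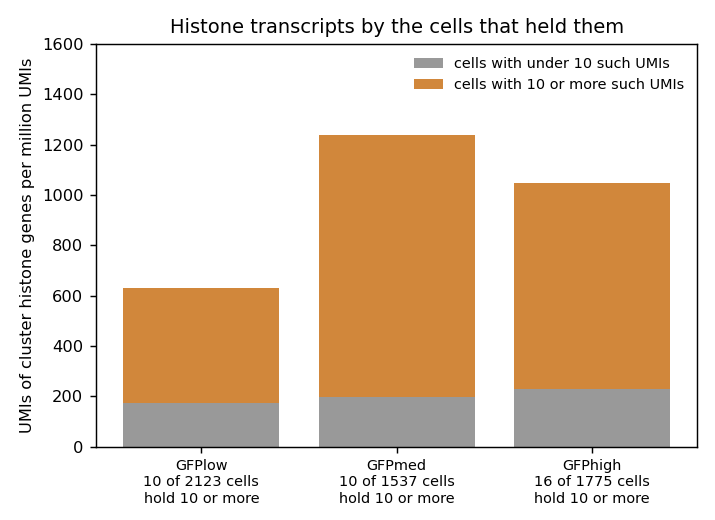
UMIs of 17 cluster histone genes per 1000000 UMIs of each bin, split by whether the cell held under 10 (grey) or 10 or more (orange) of them. The 10 or 16 cells above this number hold most of each bar, and the grey parts are 173.7, 198.6 and 228.6 UPM.

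In 4 measured genes 1 of the outer bins held 3 UMIs or fewer, which fell below the 100 UMIs required by the rule for named genes in all but Ccr2, so the other 3 are named after their values were seen. Arhgap20 (chromosome 9, 51765337 to 51853856, plus strand), a GTPase-activating protein gene, had 0, 17 and 58 UMIs, the last in 44 cells. A count of 0 allows up to 1.23 UPM in GFPlow, and against that limit Arhgap20 was at least 20.7-fold higher in GFPhigh before the counting error of its own 58 UMIs. The exact interval of its log2 ratio, which covers both counts, had a lower end of 4.03. Gsta4, a glutathione transferase gene, had 2, 9 and 93 UMIs, a log2 ratio of 5.33 [3.75, 8.71]. Slc22a2, an organic cation transporter gene that neighbours Igf2r on chromosome 17, had 1, 2 and 49 UMIs (5.15 [3.17, 11.05]), of which 1 GFPhigh cell held 26.5%.

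Neighbouring genes shared a direction in part. Of the measured genes next to a gene at least 1.5-fold higher, 13.2% were higher too, beside 8.6% of all genes, and of those next to a lower gene 10.5% were lower too, beside 5.76%. Such pairs include gene families whose reads can be shared, such as the histone genes and Tgtp1 with Tgtp2, and overlapping genes such as Ergic1 with Dusp1. F2rl1, F2r and Iqgap2 (-0.98), an IQ-motif scaffold gene, formed a run of 3 lower genes on chromosome 13. The median exonic length was 4151 bases for higher, 4548.5 for lower and 4525 for all measured genes found in the annotation (GENCODE M21). Protein-coding genes were 96.0%, 97.7% and 97.7% of them. The median GC content of the promoter windows was 60.3%, 61.3% and 61.3%.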

How the data were processed

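The deposited table holds whole UMI counts of each gene in each cell. The authors sequenced inDrops libraries on a NextSeq500, per the labels, and deposited these counts without normalization. TopHat2, SAMtools and mm10 are named in the submitters' processing notes, and the annotation, the counting program and the strand are not given in the sources used here. Cells with at least 500 UMIs were kept, doublets were not removed, and UMIs were summed over a bin and scaled to UPM. With 1 library per bin, no test was made. Intervals are exact at 95% and cover counting error only. The ratios and intervals were tried on counts simulated from the Poisson model that the intervals assume. Such counts lack the clustering of UMIs in single cells, so the trial does not cover it.

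The comparison, gene lists and rule for named genes were chosen with earlier results of these data known. Named genes had at least 100 UMIs in both bins together and were not among 73 genes named in an earlier account of these libraries. That account's full list of genes was not used here, so some named genes may belong to its lists. Ribosomal protein, antigen receptor segment, model and other-cell marker genes were left out. The rule took 30 genes per direction by the interval end nearest 0, 10 per direction by difference in UPM, genes with at most 3 UMIs in 1 bin, and up to 4 per list by absolute ratio. It named 278 genes, and the text gives values for part of them. Positions are from GENCODE M21, which held 96.7% of measured symbols. Promoters are from RefSeq. TMM factors came from edgeR 4.0.16, which was used for nothing else.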

Additional observations from a re-analysis of the deposited data

How the results depend on the processing

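No paired analysis was possible because each bin is 1 library labelled replicate 1. The number of genes past a fold depended most on the minimum of UMIs per gene. With 100 UMIs, 6.21% of 5845 genes were at least 1.5-fold higher and 4.77% lower, 1.44% at least 2-fold higher and 1.04% lower. With 1 UMI, 21.1% of 13972 genes were at least 1.5-fold higher and 15.6% lower, 12.5% at least 2-fold higher and 9.95% lower. Under the other 10 alternatives these numbers stayed within 1.5 times. With TMM scaling, the most distant for genes 1.5-fold higher, they were 560 higher and 514 lower, a smaller excess of higher genes. Each of the 60 genes chosen by interval stayed past 1.5-fold in its direction under all alternatives. The minimum of UMIs per gene could not change their ratios, and they had been chosen for intervals far from 0. The median of the circadian clock list was 0.0275 with 1 UMI per gene, and the log2 ratio of Ube2c was -0.10 without cells holding a UMI of 10 proliferation genes, an alternative chosen after seeing the data. The causes were not tested. Of 2777 values of named genes, 38 left the main interval. Of these the histone gene Hist1h3d reached 2.16 without the 2% of cells with the most UMIs. A count of 0 allows up to 1.23 UPM in GFPlow and 1.32 in GFPhigh, and no setting shows how much mice or libraries vary.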

Other observations

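At the start of chromosome 14, 7 gene models measured in the first 8 megabases (Gm2897, Gm3002, Gm3500, Gm3488, Gm10406, Gm3696 and Gm5797) were each at least 2-fold higher in GFPhigh than in GFPlow, with log2 ratios from 1.59 to 2.44. They were singled out after their values were seen. Together they stood at 58.3, 85.6 and 241.4 UPM. Reads of closely related gene models can be shared, so these are not 7 independent values. D830030K20Rik, also measured there, had a log2 ratio of 0.67 [-0.18, 1.58].

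Further genes below the 100 UMIs of the naming rule, or outside it, also differed widely and are named after their values were seen. Slc16a5, a monocarboxylate transporter family gene, stood at 18.9, 2.79 and 2.64 UPM (-2.74 [-4.36, -1.61]). Rnf125, a ubiquitin ligase gene, stood at 20.5, 5.57 and 4.85 UPM (-2.03 [-3.17, -1.12]), and the collagen gene Col1a2 at 31.2, 0.796 and 1.76 UPM (-3.99 [-6.06, -2.73]), in 24 GFPlow cells. Angptl2, a secreted protein gene, stood at 2.46, 1.99 and 20.7 UPM (2.97 [1.84, 4.59]). For the first 3 of these GFPmed lay with GFPhigh, and for Angptl2 with GFPlow.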
